A study of Mus musculus with 6 samples.

Results

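Most mitochondrial proteins are made in the cytosol and carried into the organelle by a set of membrane machines, and the genes of those machines are described here in mouse muscle with a muscle-specific deletion of estrogen receptor alpha. The import genes were chosen by symbol: every row of the deposited table whose symbol begins with Tomm or Timm, together with Dnajc19, Grpel1, Grpel2, Pam16, Samm50, Mtx1, Mtx2, Pmpca and Pmpcb. They came to 30 of the 37477 Ensembl IDs in the table. A filter on low counts kept 27 of them among 13848 genes tested, and the 3 that did not pass were Tomm6, Tomm20l and Timm8a2. Tomm20, a receptor of the outer membrane, had no row under that symbol and so was not analysed here.

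Precursor proteins first cross the outer membrane through the TOM complex, whose receptors recognise them on the cytosolic side and whose Tomm40 subunit forms the pore. Proteins with an amino-terminal presequence then pass the inner membrane through the TIM23 channel, pulled in by an ATP-driven motor built on the chaperone Hspa9, and the matrix processing peptidase removes the presequence. Barrel-shaped outer membrane proteins are inserted by the sorting and assembly machinery (SAM), and metabolite carriers reach the inner membrane through small TIM chaperones and the TIM22 channel. Skeletal muscle fibres are rich in mitochondria and depend on this traffic to keep the respiratory chain supplied.

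According to the sources, RNA came from the quadriceps of C57BL/6 mice aged 20 weeks. In the KO group the gene for estrogen receptor alpha was deleted in muscle only (genotype given as muscle-specific estrogen receptor alpha -/-), and the WT group was wild type. Each group had 3 libraries. What drives the deletion, which exons it removes and whether animals were pooled is not stated in the sources, so p-values measure the spread between libraries, which may be technical. Total counts per library were 7809612 to 8560244 in KO and 7388365 to 7733401 in WT, and counts from import genes were 9034 to 9656 per KO library and 8133 to 8848 per WT library.

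The labels were checked on Esr1, the targeted gene, which had 22, 16 and 16 counts in KO replicates 1, 2 and 3 and 50, 41 and 44 counts in WT replicates 1, 2 and 3. Its log2 difference (KO minus WT) was -1.45 ± 0.23 (SE), with each KO library below each WT library, and its adjusted p of 0.145 in edgeR's quasi-likelihood test missed the threshold of 0.05. All 6 skeletal muscle markers examined were present, and their summed level was 156682 to 176736 CPM (the count scaled to the size of its library) in KO and 171101 to 203448 CPM in WT. Most of that sum was Ttn, at 140341 ± 10992 CPM in KO and 157533 ± 15187 CPM in WT (SD, n = 3 each), while the other 5 markers had log2 differences above 0. None of the 6 had an unadjusted p under 0.05. The myosin heavy chain of highest level per kilobase of exon, over all libraries, was the slow form Myh7, at 2482 CPM per kilobase. The fast forms Myh2, Myh1 and Myh4 were at 1383, 605 and 66.0 CPM per kilobase. That the muscle was quadriceps rests on the sources alone, and whether this order is usual for quadriceps was not tested. Slow-fibre markers summed to 39151 to 42939 CPM in KO and 36786 to 43621 CPM in WT, and 1 of the 6, Tnni1 (log2 difference 0.17), had an unadjusted p under 0.05. Fast-fibre markers summed to 21381 to 21754 CPM in KO and 20354 to 21627 CPM in WT, and 6 of the 8 had log2 differences above 0. Of the 8, 3 had an unadjusted p under 0.05 (Myh1, Actn3 and Pvalb, log2 differences 0.36, 1.38 and 0.87), as did 4.26% of all tested genes. In these 3 (37.5% of the 8) every KO library was above every WT library, an order found in 4.96% of all tested genes. Myh2 was at -0.15 with every KO library below every WT library (12.5% of the 8), an order found in 5.45% of all tested genes. The adjusted p of these 5 slow-fibre and fast-fibre genes was 0.989 in edgeR's test. The part of fibre type in the import gene values was not tested. Of 5 heart markers, Myl7 was at 0 and Nppa and Tnni3 stayed under the filter, while Myh6, the main myosin heavy chain of adult mouse heart, averaged 2411 ± 171 CPM in KO and 2432 ± 268 CPM in WT (SD, n = 3 each). Tnnt2, the fifth, averaged 3.96 ± 1.10 CPM in KO and 5.66 ± 1.19 CPM in WT (SD, n = 3 each). Its log2 difference was -0.52 with an adjusted p of 0.989 (0.046 unadjusted) in edgeR's test. Per library, Myh6 was at 2289, 2337 and 2606 CPM in KO and 2589, 2586 and 2123 CPM in WT. Myh7 was at 20432.5, 20239 and 22383 CPM in KO and 23484, 23039.5 and 18715 CPM in WT. Where the Myh6 reads came from was not tested.

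Import genes were mostly well expressed in this muscle, and their levels per kilobase of exon spanned a 58.6-fold range. Levels are given as CPM per kilobase wherever genes are compared with each other. By this measure 24 of the 27 tested import genes lay above the median of all tested genes, and their median percentile was 81.6. Timm8b, a small TIM chaperone of the intermembrane space, had the highest level at 72.0 ± 4.80 CPM per kilobase in KO and 68.6 ± 4.81 in WT (SD, n = 3 each). It was followed by Timm23, the channel protein of the presequence route, at 46.8 ± 4.31 in KO and 45.5 ± 1.45 in WT. The lowest tested gene was Pam16, a subunit of the import motor, at 1.14 ± 0.0882 in KO and 1.26 ± 0.363 CPM per kilobase in WT. Exonic length is the union of annotated exons, so a gene with long rarely used exons reads lower on this scale. Exons of genes on the opposite strand cover 15.6% of the exonic bases of Timm8b, 18.7% of Pam16, 20.4% of Pmpca and 11.6% of Grpel1. The library kit does not mark strand, so reads of the overlapping genes cannot be told apart there.

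**Figure D1:**
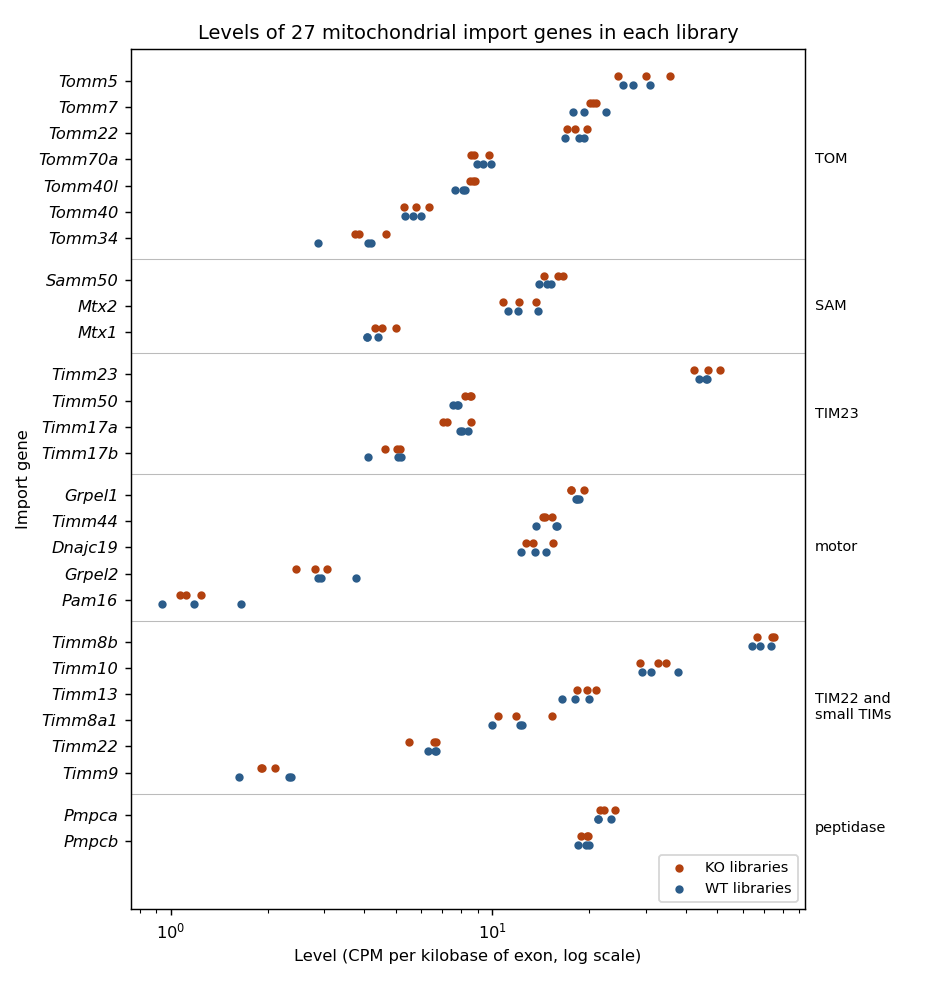
Level of each of the 27 tested import genes in each library, in CPM per kilobase of exon on a log scale, with 3 KO libraries (upper row of points) and 3 WT libraries (lower row) per gene, grouped by role. Points of the genotypes overlap for 25 genes, and Tomm40l and Timm50 are the 2 genes whose KO points all lie above the WT points.

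The import genes gave no call between KO and WT. By edgeR's quasi-likelihood test 0 of 27 had an adjusted p under 0.05, against 0 of 13848 genes tested (0%), and 0 of 27 had an unadjusted p under 0.05, against 590 of all genes (4.26%). The lowest adjusted p of an import gene was 0.989, DESeq2 and limma voom called 0 of the 27, and so did every other alternative tried. The log2 differences ran from -0.21 for Grpel2 to 0.14 for Mtx1. By sign alone 17 were above 0 and 10 below, or 63.0%, where 49.3% of all tested genes were above 0, and the median was 0.040 beside -0.0024 over all genes.

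That median rested partly on single libraries. It was -0.024, with 12 genes above 0 and 15 below, without KO replicate 2, and 0.016 without WT replicate 3. It was 0.0135, with 16 above and 11 below, once a trend over gene length was removed from each library. The log2 differences of all tested genes had a Spearman correlation of -0.186 with exonic length (n = 13220 genes of the same 6 libraries, a description). Among the tested import genes that correlation was -0.342 (n = 27). The median exonic length was 3528 bases for the tested import genes and 4184 bases for tested genes with a length, and the part of length in the median was not tested beyond that setting.

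The data bounded the size of any difference fairly closely. For 26 of 27 import genes the 95% interval stayed inside a 1.5-fold difference in both directions. The same held for 9065 of the 13848 genes tested, and for 8663 of the 10005 tested genes of at least 5 CPM. For all 27 import genes the interval stayed inside a 2-fold difference. The exception at 1.5-fold was Pam16, whose interval ran from -0.70 to 0.44 on the log2 scale with 22, 25 and 22 counts in KO and 30, 21 and 18 counts in WT. The median half-width was 0.22 log2 units for the import genes, 0.33 for all tested genes and 0.26 for genes of at least 5 CPM. Because the muscle was measured in bulk, a change in the number of fibres of a type and a change in RNA per fibre cannot be told apart.

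**Figure D2:**
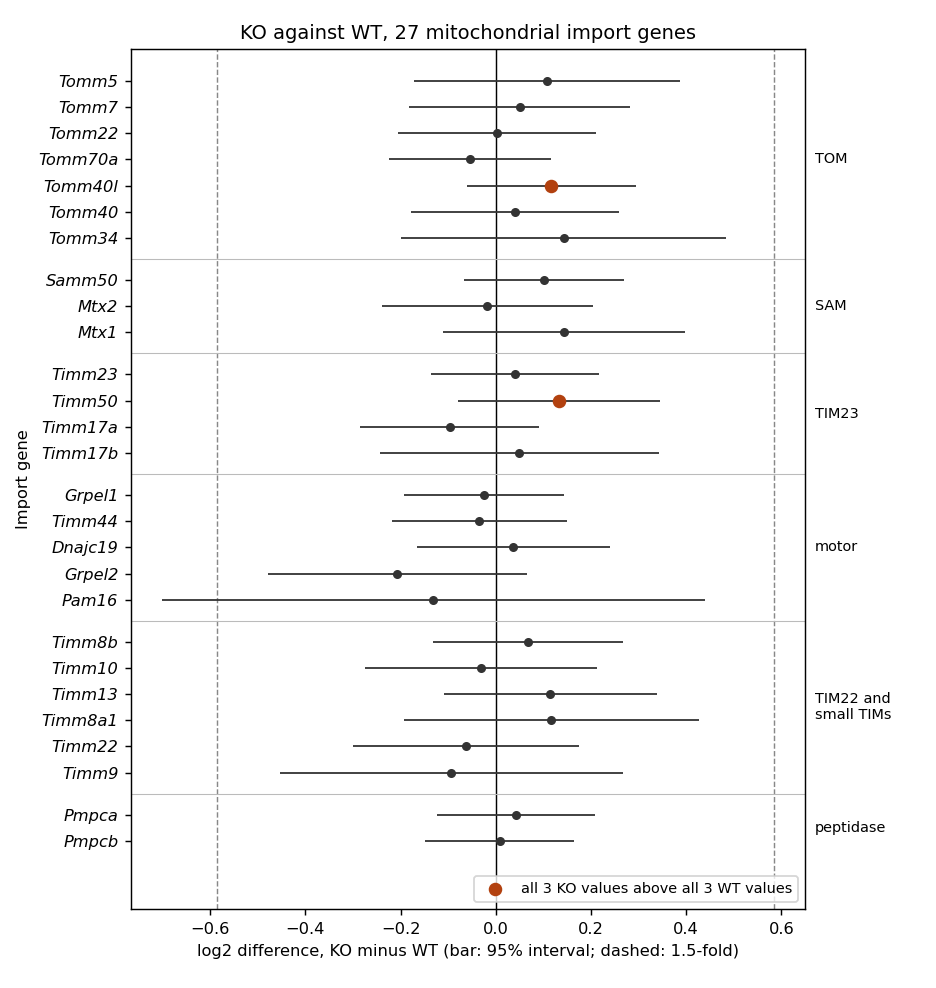
log2 difference, KO minus WT, of the 27 tested import genes with 95% intervals, grouped by role, and dashed lines at a 1.5-fold change. All 27 intervals include 0, and 26 stay inside the dashed lines, with Pam16 the exception.

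For Tomm40l and Timm50, 2 of the 27 (7.41%), the lowest KO library was above the highest WT library, where 4.96% of all tested genes did so. The reverse order held for 0 of the 27, where it held for 5.45% of all tested genes. These shares are near the background, so the non-overlap of these genes is given as a value only.

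Among the Tomm genes, plotted together as TOM although Tomm34 is cytosolic, 6 of 7 tested had values above 0 and 1 below, none past the test. Tomm40l (ENSMUSG00000005674, chromosome 1, 171216011 to 171222514, minus strand, mm10) encodes a close relative of the pore protein. It was at 43.8, 44.7 and 45.3 CPM in KO replicates 1, 2 and 3 and at 41.7, 39.4 and 42.3 CPM in WT replicates 1, 2 and 3. The KO libraries were all above the WT libraries, by a narrow margin, with a log2 difference of 0.12 ± 0.08 (SE), and edgeR's test gave an adjusted p of 0.989 (0.185 unadjusted). Exons of Nr1i3, on the opposite strand, cover 64.3% of the exonic bases of Tomm40l, and since the library kit does not mark strand, reads of these genes cannot be told apart there.

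Tomm40 itself, the pore, was at 24.0, 28.8 and 26.1 CPM in KO and 25.6, 24.1 and 27.001 CPM in WT, with full overlap between genotypes. Tomm34, a cytosolic cochaperone that holds precursors ready for import, was at 14.2, 11.7 and 11.4 CPM in KO and 12.7, 12.4 and 8.75 CPM in WT, a log2 difference of 0.14 ± 0.16 (SE) with an adjusted p of 0.993 in edgeR's test. WT replicate 3 alone was low, and without it the log2 difference of Tomm34 was -0.016. Tomm5, a small stabilising subunit with the highest level per kilobase in the complex (30.1 ± 5.62 in KO and 27.9 ± 2.79 in WT, SD, n = 3 each), was at 21.3, 31.1 and 26.1 CPM in KO and 22.1, 23.8 and 26.9 CPM in WT. KO replicates 1 and 2 of Tomm5 enclosed every other value.

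The receptors Tomm22 and Tomm70a, which receive precursors at the surface, averaged 30.2 ± 2.13 and 88.6 ± 6.22 CPM in KO against 30.1 ± 2.05 and 91.9 ± 4.76 CPM in WT (SD, n = 3 each). Tomm22 had the smallest difference of all import genes, 0.0034 on the log2 scale with an interval from -0.20 to 0.21. Tomm7, another small subunit, averaged 23.1 ± 0.525 CPM in KO and 22.4 ± 2.77 CPM in WT. Tomm6, a small subunit too, had only 1, 0 and 2 counts in KO and 2, 1 and 1 counts in WT. Exons of other genes, Gm21981, Tomm6os and Usp49, cover 84.2% of its exonic bases, so its low count says little about its RNA, and the counting of reads shared between genes is not stated in the sources. Tomm20l, a relative of the Tomm20 receptor, had 4, 2 and 2 counts in KO and 3, 2 and 6 counts in WT.

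The SAM genes included Samm50, the barrel that inserts other barrel proteins into the outer membrane. Samm50 (ENSMUSG00000022437, chromosome 15, 84192241 to 84217267, plus strand) was at 94.9, 105 and 109 CPM in KO and 99.9, 97.0 and 91.3 CPM in WT. KO replicates 2 and 3 were above every WT library and KO replicate 1 was below 2 of them. Its log2 difference was 0.10 ± 0.08 (SE), for which edgeR's test gave an adjusted p of 0.993 (0.218 unadjusted). It was 0.16 without KO replicate 1, 0.060 without KO replicate 3 and 0.066 without WT replicate 3. The metaxins Mtx1 and Mtx2 are partners of Samm50 on the cytosolic face. Mtx1 was at 15.5, 16.3 and 17.95 CPM in KO and 14.6, 15.9 and 14.6 CPM in WT, overlapping at WT replicate 2, with a log2 difference of 0.14 ± 0.12 (SE), or 0.085 without KO replicate 3. Exons of Thbs3 and Gm43737 cover 30.1% of its exonic bases. Mtx2 averaged 44.9 ± 5.39 CPM in KO and 45.4 ± 4.91 CPM in WT (SD, n = 3 each), and per kilobase it stood above Mtx1, at 12.2 against 4.63 in KO and 12.4 against 4.19 in WT.

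In the TIM23 channel, Timm50 is the receptor that takes over presequences as they leave the TOM pore. Timm50 (ENSMUSG00000003438, chromosome 7, 28305516 to 28312072, minus strand) was at 22.1, 22.96 and 23.03 CPM in KO and 21.03, 20.8 and 20.3 CPM in WT. The KO libraries were all above the WT libraries and the spread within each genotype was small, 22.7 ± 0.5004 CPM in KO and 20.7 ± 0.381 CPM in WT (SD, n = 3 each). Even so the log2 difference of 0.13 ± 0.10 (SE) had an adjusted p of 0.989 (0.202 unadjusted) in edgeR's test, which draws each gene's spread toward that of genes of like abundance. Over the alternatives its log2 difference stayed between 0.12 and 0.15 and its adjusted p between 0.879 and 1.00. Its promoter window is shown because it is the import gene outside any exon overlap whose genotypes were apart. The RefSeq window of GRCm38.p6 lies at chr7:28311997-28312296 on the minus strand, from 250 bases before to 50 after the annotated start. Capitals mark the core of the site for NRF-1, read on the opposite strand, a factor known to drive many nuclear genes of mitochondria. This core begins 41 bases after the annotated start, not before it, and whether NRF-1 binds there was not tested.
Timm50: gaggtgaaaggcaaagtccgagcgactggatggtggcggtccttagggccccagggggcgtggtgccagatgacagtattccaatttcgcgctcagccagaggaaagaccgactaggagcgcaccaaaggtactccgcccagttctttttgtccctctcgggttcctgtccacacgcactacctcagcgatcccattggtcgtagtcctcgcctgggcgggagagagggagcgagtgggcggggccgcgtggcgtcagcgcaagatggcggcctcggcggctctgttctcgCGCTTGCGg

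Timm23, which forms the channel with Timm17, was at 75.6, 91.0 and 83.9 CPM in KO and 78.2, 82.9 and 82.5 CPM in WT. KO replicate 1 was the lowest and KO replicate 2 the highest of the 6 libraries. Timm17 exists as alternative forms, of which Timm17a was at 57.2, 67.5 and 55.3 CPM in KO and 62.8, 63.6 and 66.2 CPM in WT. KO replicates 1 and 3 were under every WT library and KO replicate 2 was over every WT library, and the log2 difference was -0.10 ± 0.09 (SE) with an adjusted p of 0.993 in edgeR's test. Without single libraries that difference was -0.063 (KO replicate 1), -0.19 (KO replicate 2) and -0.042 (KO replicate 3). Timm17b, on the X chromosome, was at 11.8, 12.9 and 13.2 CPM in KO and 12.99, 13.3 and 10.5 CPM in WT, fully overlapping.

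The import motor was the group with the most values under 0, 4 of 5, none past the test. Grpel2, a nucleotide exchange factor that recycles the motor chaperone, had the smallest unadjusted p of the import genes. It was at 16.6, 19.0 and 20.7 CPM in KO and 19.4, 19.8 and 25.5 CPM in WT. WT replicate 3 stood above the other 5 libraries, which overlapped. The log2 difference was -0.21 ± 0.13 (SE), with an adjusted p of 0.989 (0.127 unadjusted) in edgeR's test, and it was -0.068 without WT replicate 3 and -0.13 without KO replicate 1. Grpel1, the related exchange factor and the motor gene of highest level per kilobase (18.1 ± 0.973 in KO and 18.4 ± 0.214 in WT, SD, n = 3 each), was at 61.8, 67.8 and 61.9 CPM in KO and 64.3, 65.8 and 64.8 CPM in WT.

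Timm44, which tethers the chaperone to the channel, averaged 54.1 ± 1.94 CPM in KO and 55.4 ± 4.65 CPM in WT. Dnajc19, the J-domain protein that stimulates the chaperone and whose human counterpart is mutated in a cardiomyopathy with ataxia, averaged 55.9 ± 5.70 CPM in KO and 54.5 ± 4.89 CPM in WT (SD, n = 3 each). Pam16, known from yeast to restrain the J-domain protein, averaged 2.78 ± 0.215 CPM in KO and 3.06 ± 0.883 CPM in WT. Groups overlapped for all 3.

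On the carrier route, 3 of 6 tested genes had values above 0 and 3 below, and none passed the test. Timm13, a small TIM that pairs with Timm8, was at 25.1, 27.1 and 28.7 CPM in KO and 22.5, 24.8 and 27.4 CPM in WT. The lowest KO library was above 2 of the WT libraries, and the log2 difference was 0.11 ± 0.11 (SE) with an adjusted p of 0.993 in edgeR's test. It was 0.067 without KO replicate 3, 0.047 without WT replicate 1 and 0.19 without WT replicate 3. Timm8a1, whose human counterpart is lost in a syndrome of deafness and dystonia, was at 14.8, 21.7 and 16.8 CPM in KO and 14.2, 17.4 and 17.6 CPM in WT. KO replicate 2 alone was high, and without it the log2 difference was -0.052, against 0.12 with all libraries. Timm8b was at 34.4, 39.0 and 38.4 CPM in KO and 38.2, 35.3 and 33.2 CPM in WT, overlapping at KO replicate 1.

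Timm9 and Timm10, which form the chaperone that escorts carriers, averaged 8.47 ± 0.490 and 26.1 ± 2.48 CPM in KO and 9.03 ± 1.79 and 26.6 ± 3.69 CPM in WT (SD, n = 3 each). Timm22, the channel of this route, averaged 19.9 ± 2.08 CPM in KO and 20.8 ± 0.598 CPM in WT. Timm8a2 had 1 count in KO replicate 2 and 0 in the other 5 libraries, where 0 allows up to 3 counts, for counting error only. The processing peptidase joins the catalytic Pmpcb and the substrate-binding Pmpca, and neither passed the test. Pmpca was at 95.6, 92.8 and 103 CPM in KO and 91.5, 100 and 91.1 CPM in WT, and Pmpcb averaged 100 ± 2.52 CPM in KO and 99.4 ± 4.01 CPM in WT (SD, n = 3 each). Per kilobase the peptidase subunits were close, 22.7 ± 1.22 for Pmpca and 19.5 ± 0.490 for Pmpcb in KO, and 22.0 ± 1.20 and 19.3 ± 0.779 in WT. Exons of Inpp5e, on the opposite strand, cover 20.4% of the exonic bases of Pmpca.

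Promoter windows were matched for 27 of the 30 import genes, which are not the same 27 as those tested. Grpel2, Tomm7 and Tomm40l had no window and were not searched, while the untested Tomm6, Tomm20l and Timm8a2 had one. The NRF-1 core CGCANGCG, searched on both strands, was found for 4 of them (Timm8b, Timm13, Pam16 and Timm50), 14.8%, against 9.22% of 27025 genes with a window. The site TCAAGGTCA of the estrogen-related receptors, a family distinct from the estrogen receptors, was found for 1 import gene, Timm8b (3.70%), against 0.466% of genes. The palindromic estrogen response element, GGTCA and TGACC with 3 bases between, was found for 0 import genes and 0.074% of genes. The 27025 genes are all those with a RefSeq window, whether or not they were expressed or tested in this muscle, while the import genes were mostly well expressed. These matches are descriptions of letters in a 300-base window. Timm8b is shown because it had the highest level and held both sites in capitals, TCAAGGTCA first and the NRF-1 core, read on the opposite strand, after it. Relative to the annotated start, TCAAGGTCA begins at base -96 and the NRF-1 core at base 19, which is after the start. Its window lies at chr9:50603651-50603950 on the plus strand of GRCm38.p6 in RefSeq.
Timm8b: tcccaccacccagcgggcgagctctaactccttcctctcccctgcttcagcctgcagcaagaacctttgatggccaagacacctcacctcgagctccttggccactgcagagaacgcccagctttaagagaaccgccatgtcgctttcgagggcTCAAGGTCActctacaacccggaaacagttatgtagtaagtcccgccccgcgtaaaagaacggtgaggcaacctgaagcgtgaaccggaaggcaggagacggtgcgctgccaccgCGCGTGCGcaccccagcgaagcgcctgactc

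Some import proteins have related forms, and the balance within such pairs was compared next, with levels per kilobase. Timm17a made up 61.0%, 62.9% and 57.5% of the Timm17 pair in KO and 61.0%, 60.8% and 67.1% in WT. Tomm40 took less than Tomm40l in every library, at 38.4%, 42.3% and 39.6% of the pair in KO and 41.1%, 41.0% and 42.05% in WT, where the overlap of Tomm40l with Nr1i3 exons applies. Grpel1 made up 86.7% ± 1.37 of the Grpel pair in KO and 85.2% ± 1.98 in WT, and Timm8a1 made up 14.7% ± 1.86 of Timm8a1 and Timm8b in KO and 14.5% ± 2.23 in WT (SD, n = 3 each). Genotypes overlapped for all 4 pairs. In exact two-sided permutation tests, which cannot go below 0.1 with 3 against 3 libraries, the p-values were 0.5 for Timm17a, 0.4 for Tomm40, 0.4 for Grpel1 and 0.9 for Timm8a1. Adjusted over the 4 pairs these exact p-values were 0.667, 0.667, 0.667 and 0.9.

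**Figure D3:**
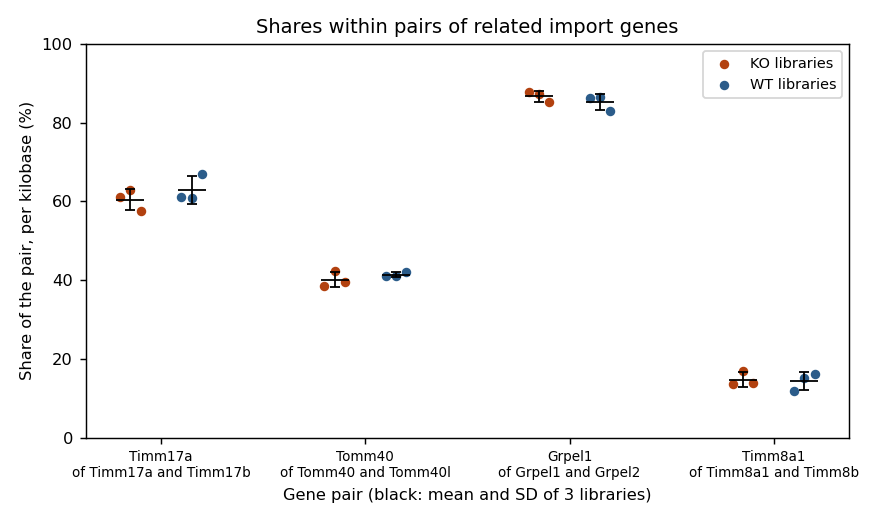
Share of the first gene in each of 4 pairs of related import genes, per kilobase, in each of 3 KO and 3 WT libraries, with the mean and SD in black. The pairs differ widely from each other, from about 14.7% for Timm8a1 to 86.7% for Grpel1 in KO, and the genotypes overlap within each pair.

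The spread among KO libraries was larger than the difference between genotypes. The summed level of all 30 import genes was 1069, 1167 and 1137 CPM in KO replicates 1, 2 and 3 and 1092, 1112 and 1122 CPM in WT replicates 1, 2 and 3, so that the KO libraries spanned the WT libraries on both sides. Set against each gene's own mean on a log2(CPM + 0.5) scale, the median import gene stood at -0.068, 0.066 and 0.048 in KO and -0.041, 0.0089 and 0.010 in WT. In KO replicate 1 only 6 of the 27 genes were above their own mean, while 20 were in KO replicate 2. KO replicate 1 also had the largest share of counts from the mitochondrial genome, 9.53%, where KO replicates 2 and 3 had 7.05% and 6.14% and the WT libraries 6.94% to 7.46%. The part of that share in the import gene values was not tested.

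**Figure D4:**
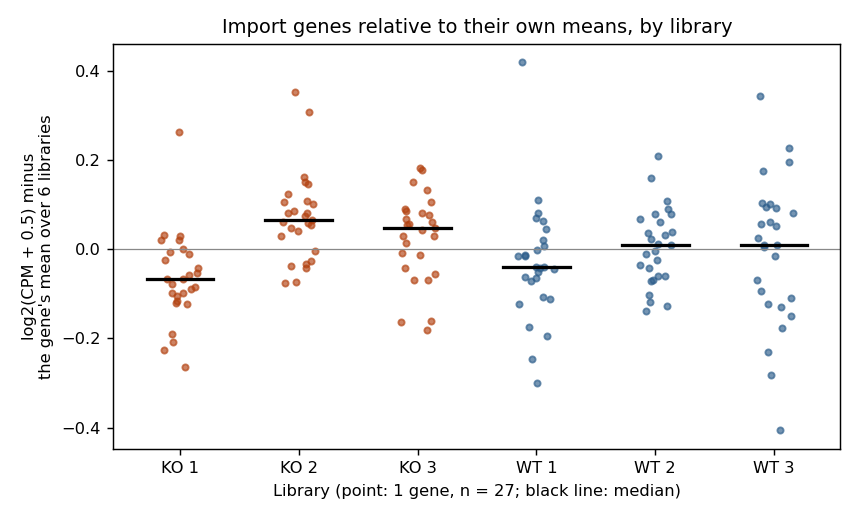
Each point is 1 of the 27 tested import genes in 1 library, as log2(CPM + 0.5) minus the gene's mean over 6 libraries, with the median as a black line. KO replicate 1 has the lowest median (-0.068) and KO replicate 2 the highest (0.066), and the 3 WT medians lie between them.

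Other genes, listed as related to import, gave a like picture, although not all of them act in import itself (Timmdc1, described below, is an example). Of 22 related genes in the table, all tested, 12 had values above 0 and 10 below, with a median log2 difference of 0.022. None was called in edgeR's test, and 1 of 22 had an unadjusted p under 0.05, where 4.26% of all tested genes did. In 2 of the 22 (9.09%), Dnajc15 and Timm21, the KO libraries were all above the WT libraries, where 4.96% of all tested genes were. The 1 gene was Dnajc15, a relative of Dnajc19, at 42.7, 43.1 and 37.8 CPM in KO and 35.1, 35.6 and 37.5 CPM in WT. All KO libraries were above all WT libraries, KO replicate 3 by little, and the log2 difference of 0.19 ± 0.09 (SE) had an adjusted p of 0.989 (0.0498 unadjusted) in edgeR's test. Hspa9, the chaperone of the import motor, was at 545, 598 and 529 CPM in KO and 539, 589 and 562 CPM in WT, a log2 difference of -0.016 with an interval from -0.18 to 0.14.

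Of these 22, 4 stand in the table under older symbols and so fell outside the symbol rule. They were Timm21, a TIM23 subunit listed as 1700034H14Rik, Timm29, a TIM22 subunit listed as 1810026J23Rik, Timm10b, listed as Fxc1, and Timmdc1, an assembly factor of respiratory complex I listed as 4930455C21Rik. Timm21 was at 17.9, 18.8 and 18.7 CPM in KO and 14.9, 16.5 and 17.7 CPM in WT, with all KO libraries above all WT libraries, a log2 difference of 0.17 ± 0.12 (SE) and an adjusted p of 0.989 in edgeR's test. Timmdc1 was at 26.0, 27.4 and 24.8 CPM in KO and 21.2, 22.0 and 26.4 CPM in WT, which overlapped at WT replicate 3. Timm10b was at 2.72, 4.23 and 3.71 CPM in KO and 3.75, 4.65 and 4.56 CPM in WT, also overlapping, and Timm29 averaged 29.6 ± 1.22 CPM in KO and 31.9 ± 1.15 CPM in WT (SD, n = 3 each).

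For common mitochondrial genes outside import, such as the citrate synthase gene Cs and the porin gene Vdac1, 10 of 13 had values above 0 and 3 below, with a median log2 difference of 0.037, and none was called. Cs was at 429 ± 25.4 CPM in KO and 433 ± 12.4 CPM in WT, and Vdac1 at 906 ± 46.3 CPM in KO and 841 ± 41.4 CPM in WT (SD, n = 3 each). In the authors' deposited table, the adjusted p was 1 for all 30 import genes. The smallest p there was 0.229, for Grpel2, with a log2 fold change of -0.20 in the authors' deposited table.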

How the data were processed

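The submitters' processing notes name TopHat 1.3.3, edgeR and mm10 without saying what each did. RNA was taken with Trizol into the TruSeq RNA kit (unstranded), per the labels' protocols. The deposited table holds raw counts per Ensembl gene, with a log2 fold change, a log2 mean CPM and p-values by the authors under edgeR's column names, per the file headers. The read counter and the treatment of reads mapping to several places or shared by genes are not stated in the sources.

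The 29 repeated IDs were merged (0 among import genes). Genes were tested with edgeR 4.0.16 in R 4.3.3 (filterByExpr, TMM, robust glmQLFit and glmQLFTest, genotype alone, Benjamini-Hochberg adjustment over 13848 genes, threshold 0.05). The SE is the size of the log2 difference over the square root of F. CPM use TMM-scaled totals. Coordinates and exonic lengths came from GENCODE M21 (GRCm38, the assembly of mm10), matched for all 30 import genes, and promoters from RefSeq. Alternatives were RLE, upper-quartile and no scaling, other filters, DESeq2 1.42.0, limma voom 3.58.1, a replicate block, a gene-length offset and leaving out each library. All libraries were kept as separate, since replicates differed by more than sampling noise (chi-square per gene 3.46 to 9.57).

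Import genes, lists and tests were chosen with earlier results of these data known. All import genes are named; per-library values go to the 8 of smallest p, the highest per kilobase in each role and the paralogue pairs; of the related genes, the 4 of smallest p and Hspa9. The rest are given as means. The test was tested on simulated data of the 13848 genes: 182 of 200 genes changed 2-fold were called, and 9 others. In the measured data Actn3 and Esr1, with log2 differences of 1.38 and -1.45, were not called. Their adjusted p was 0.989 and 0.145 in edgeR's test. The simulated share is therefore not a rate of detection for the measured data.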

Additional observations from a re-analysis of the deposited data

How the results depend on the processing

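Under 16 alternatives no import gene passed the threshold (lowest adjusted p 0.787), and 407 of 432 values kept their sign; 11 of 27 genes did so throughout. The count over all genes was 19 with no filter beyond 1 count, 2 in DESeq2 and 1 in limma voom; without single libraries it ranged from 0 to 3. The median log2 difference of the import genes ranged from -0.024 to 0.054 without single libraries and was 0.037 with the replicate block. Esr1 (log2 difference -1.44) had an adjusted p of 0.000142 with no filter beyond 1 count, and of 0.0903 to 0.822 in the other alternatives. Correlations of same-numbered KO and WT libraries were 0.051, 0.318 and 0.024, and those of differently numbered libraries ran from -0.253 to 0.188. So few values cannot decide whether replicate numbers pair libraries. The replicate block called 0 genes. Tomm22 was -0.030 with the gene-length offset, alone or with the replicate block. Leaving out single libraries gave log2 ranges across 0 of -0.047 to 0.10 for Dnajc19, -0.11 to 0.071 for Mtx2, -0.31 to 0.11 for Pam16, -0.0003 to 0.087 for Pmpca, -0.024 to 0.033 for Pmpcb, -0.11 to 0.088 for Timm10, -0.052 to 0.11 for Timm17b, -0.11 to 0.022 for Timm22, -0.024 to 0.11 for Timm23, -0.10 to 0.0038 for Timm44, -0.052 to 0.23 for Timm8a1, -0.051 to 0.049 for Tomm22, -0.016 to 0.24 for Tomm34, -0.027 to 0.10 for Tomm40, -0.034 to 0.24 for Tomm5 and -0.026 to 0.15 for Tomm7. The Timm8a1 share differed by -0.973 to 1.16 percentage points. The causes were not tested. Pam16, with the widest interval, had the lowest level of the tested import genes, and Tomm6, Tomm20l and Timm8a2 were under the filter on low counts.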
